A study of Drosophila melanogaster with 10 samples.

Results

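The levels described here are those of 1 library, the control RNA library of cultured Drosophila ovarian somatic cells (OSC). It was chosen by its labels out of 10 libraries in the series, and its genes were ranked by their level within it. The series compared knock-downs of piRNA pathway components with a control, by RNA sequencing in 6 libraries and by RNA polymerase II immunoprecipitation in 4; only the control RNA library was used here. Control cells grew at 26 °C in a medium that contains fly extract. They received an siRNA against EGFP, a jellyfish protein with no gene in the fly genome, and were collected 2 days later. RNA was selected by its poly(A) tail before the library was made. The cells were thus transfected and cultured, not taken from the animal, and no untransfected culture was analysed. With 1 library there is no replicate check, and no p-value is given. Every level is in RPKM, reads scaled by gene length in kilobases and by the mapped reads of the library, so levels of different genes can be set side by side.

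OSC derive from the somatic part of the fly ovary, the layer of follicle cells and their precursors that wraps the germ cells. In the animal these cells are made from stem cells under Hedgehog, JAK-STAT and Wnt signals, form an epithelium, and late in life secrete yolk and eggshell proteins. They carry the somatic form of the piRNA pathway, in which small RNAs bound to Piwi silence transposons of the gypsy type. OSC divide in culture without germ cells around them.

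The gene table of the control library held 13984 gene names. Of these, 10768 (77%) were above 0, 7583 (54.2%) were at 1 RPKM or more, 5805 (41.5%) at 10 or more, 965 (6.9%) at 100 or more and 107 (0.765%) at 1000 or more. The other 3216 (23%) were at 0. A level of 1 RPKM is called expressed here, and the share of each gene list is to be read against the 54.2% of all genes. The median over all genes was 2.82 RPKM, and the median of the genes at 1 RPKM or more was 24.6 RPKM. The distribution had 2 humps. The larger one peaked between 17.8 and 31.6 RPKM with 1473 genes, and the lower one lay between 0.0316 and 0.1 RPKM. Between them, 329 genes fell from 1 to 1.78 RPKM. The lower hump lies where levels rest on a few reads, so its position depends on depth and was not read.

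**Figure D1:**
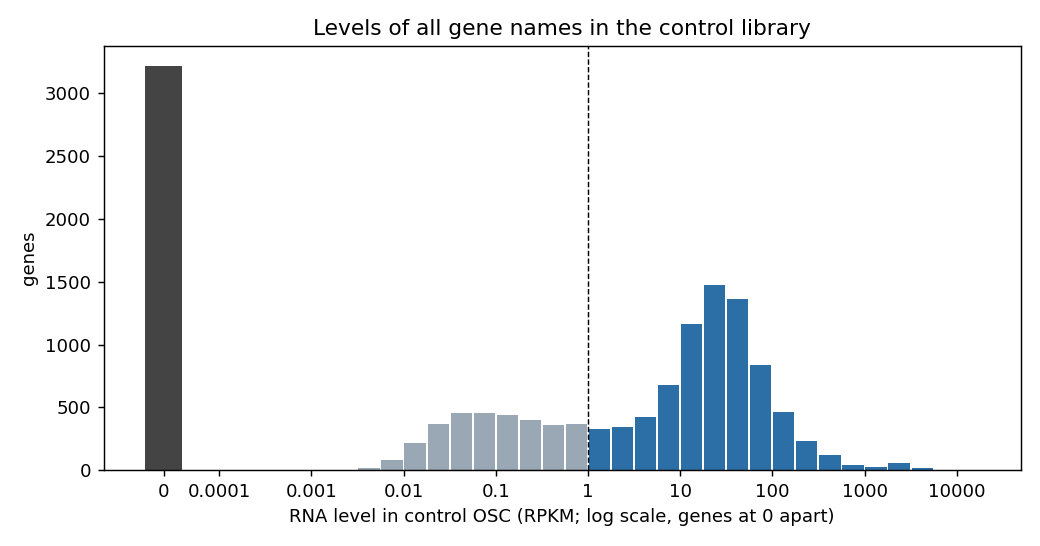
Number of genes by RPKM (log axis) in the control OSC library. The larger hump lies between 10 and 100 RPKM, the class that held 4840 genes. Genes at 0 are drawn as a separate bar at the left, and 21 genes above 0 but under 0.0001 RPKM are not drawn.

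The depth was read from the low values, since no read total is given. Values at loci of 2000 bases or more start where RPKM times length in kilobases is 0.03, the worth of 1 read, which places the library at about 33300000 reads. For a transcript of 1 kb, 1 RPKM is then 33 reads, with a 95% exact Poisson interval of 0.681 to 1.39 RPKM. At 0.1 RPKM it is 3 reads, with an interval of 0.0186 to 0.263 RPKM, and at 100 RPKM it is 3333 reads, with 96.6 to 103 RPKM. A value of 0 allows a level of up to 0.09 RPKM on 1 kb, the level of 3 reads. These intervals cover counting error only. Values under about 0.1 RPKM are printed below as the table gives them, but at that size they rest on a few reads and their order is not read.

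The kit named in the labels does not mark strand. Reads of overlapping genes can therefore not be told apart by strand, and 5204 genes had a locus that overlaps another. For 1877 of them the partner was at 10 times their level or more, a count that includes every overlapping gene at 0. In some of those pairs, such as gcm and CG31709, the partner was at 0 as well. For many named genes with a partner at that ratio, the partner's level stands beside the gene's, but not for all. A gene printed without a partner is therefore not cleared of overlap.

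RNA of the protein synthesis machinery led the library. Of the 30 highest genes of at least 300 bases, 29 encode proteins of the cytosolic ribosome, and the exception was Ef1alpha48D, elongation factor 1 alpha, with 6895 RPKM (2R, 7779596 to 7783025 in build dm3). RpL41, which encodes the smallest ribosomal protein, was the highest gene at 15508 RPKM (2R, 20790939 to 20791452), followed by RpL39 at 9558 RPKM. RpS27A, a fusion of ubiquitin with a ribosomal protein, had 4444 RPKM. Qm, listed in release 6 under RpL10, had 4116 RPKM. The 93 genes of cytosolic ribosomal proteins held 35.6% of the summed RPKM; 80 of them were at 1000 RPKM or more, and their median was 2488 RPKM. Ribosomal proteins of the mitochondrion formed a tighter and lower group. All 73 lay between 28.0 and 176 RPKM, with a median of 60.2 RPKM.

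Few genes thus carried most of the sum. The 186 highest genes held 50% of it, the 100 highest 41.6% and the 1000 highest 72.95%. At the other end, 3185 genes above 0 but under 1 RPKM held 0.101% of it. The lead of the ribosomal genes does not rest on the loci shorter than 300 bases, of which the highest stood at rank 433. Locus length runs from start to end with introns included, so short transcripts in longer loci were not checked.

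Translation factors followed. Of 20, 19 were at 100 RPKM or more, with a median of 363 RPKM. Beside Ef1alpha48D these included Rack1, a scaffold protein of the small ribosomal subunit, with 2431 RPKM, Ef2b, elongation factor 2, with 2117 RPKM, eIF-5A with 2086 RPKM and the helicase eIF-4a with 1788 RPKM. The highest genes outside translation made the cytoskeleton, chaperones and abundant chromatin proteins. Act5C, a cytoplasmic actin, had 2612 RPKM, betaTub56D 2595 RPKM and alphaTub84B 2244 RPKM, the main tubulins of dividing fly cells. The heat shock cognate Hsc70-4 had 2269 RPKM and Hsp83, the fly Hsp90, 1356 RPKM. The HMG box protein HmgD had 1791 RPKM and the decondensation factor Df31 1463 RPKM. The actin regulators tsr, the fly cofilin, and chic, profilin, had 1397 and 1209 RPKM. The SUMO gene smt3 had 1389 RPKM.

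In gene pairs that encode the same kind of protein, 1 copy usually carried nearly all of the RNA. Ef1alpha48D stood at 6895 RPKM, while its paralogue Ef1alpha100E stood at 0.357 RPKM. The somatic cytochrome c gene Cyt-c-p had 565 RPKM and Cyt-c-d, known for its role in sperm, had 0.213 RPKM; the locus of Cyt-c-d overlaps CG31782 at 10.4 RPKM. Of the adenine nucleotide carriers, sesB had 608 RPKM and Ant2, whose locus overlaps it, had 2.15 RPKM. The same held for ribosomal proteins: RpS28b had 3374 RPKM and RpS28a 2.04 RPKM, RpL37a 1699 RPKM and RpL37b 0.141 RPKM, and RpS10b 2375 RPKM and RpS10a 2.26 RPKM. RpL10Aa and RpL22-like were at 0, while their partners RpL10Ab and RpL22 had 2506 and 1062 RPKM. RpS5b and RpS19b, which are known from germ cells, were not near 0. They had 84.4 and 52.7 RPKM, beside 2999 RPKM for RpS5a and 3078 RPKM for RpS19a. The tubulin copies of the germline were low: alphaTub67C had 1.13 RPKM, gammaTub37C 0.0647 RPKM and betaTub85D was at 0. Proteasome genes divided in the same way. Of 48, 36 were at 1 RPKM or more and 12 were at 0, and the 12 are extra copies of subunit genes such as Prosalpha3T and Prosbeta5R. Not every extra copy was at 0: Rpt3R had 36.0 RPKM, beside 278 RPKM for Rpt3. By contrast, both genes for histone H3.3 were high, His3.3B at 649 RPKM and His3.3A at 302 RPKM, and so were Gapdh2 at 433 RPKM and Gapdh1 at 192 RPKM. Levels of near-identical copies are uncertain, because no source used here says how reads shared by several copies were assigned. The proteasome pair CG30382 at 591 RPKM and Prosalpha1 at 13.7 RPKM, whose loci overlap, is 1 such case.

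Genes of energy metabolism were mostly expressed. In the list of TCA cycle and respiratory chain genes 29 of 30 were at 1 RPKM or more, with a median of 219 RPKM. ATPsyn-beta, the catalytic subunit of ATP synthase, had 981 RPKM, the outer membrane channel porin 638 RPKM and the cytochrome oxidase subunit gene CG10664 617 RPKM. Of 16 genes of glycolysis and gluconeogenesis, 13 were at 1 RPKM or more, with a median of 107 RPKM. ImpL3, lactate dehydrogenase, stood second at 211 RPKM. The members under 1 RPKM were fbp and Pepck, enzymes of gluconeogenesis at 0.503 and 0.0124 RPKM, and the sugar transporter Glut1 at 0.031 RPKM. Argk, arginine kinase, which stores phosphate for ATP, and the desaturase desat1 had 439 and 331 RPKM; both were picked after their values were seen.

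All 41 genes listed for the cell cycle and DNA replication were at 1 RPKM or more, with a median of 64.0 RPKM. The highest were mus209, which encodes PCNA, the sliding clamp of DNA polymerase, with 438 RPKM, geminin, an inhibitor of replication licensing, with 329 RPKM, the ribonucleotide reductase subunit RnrS with 226 RPKM and the mitotic kinase polo with 204 RPKM. The mitotic kinase gene cdc2 had 135 RPKM and its cyclins CycB and CycA 120 and 109 RPKM. CycD and CycE, the cyclins of G1, were lower at 22.9 and 17.1 RPKM. The lowest member was twe, the Cdc25 phosphatase of meiosis, at 2.85 RPKM, and its locus overlaps EndoGI at 116 RPKM. Its mitotic counterpart stg had 39.3 RPKM. All 44 chromatin genes and all 33 genes of RNA polymerase II, splicing and RNA export were at 1 RPKM or more as well. The chromatin gene of lowest level was rhi, a germline relative of HP1, at 1.56 RPKM. Among splicing factors, Hrb27C, an hnRNP protein, was highest at 571 RPKM, ahead of sqd at 425 RPKM.

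Genes that mark somatic cells of the ovary were expressed, and genes of the mature follicle cell were mostly not. Of 22 genes in the list of somatic ovary identity, 16 (72.7%) were at 1 RPKM or more and 13 at 10 or more, with a median of 21.3 RPKM. The highest was traffic jam (tj), the Maf factor of somatic gonad cells, at 195 RPKM. It lies on 2L, 19464579 to 19467758, and stood at rank 455. The zinc finger and homeodomain factor zfh1 had 130 RPKM, the adhesion protein Fas2 101 RPKM and the Snail family factor esg 68.0 RPKM. Fas3, the membrane protein used to outline early follicle cells, had 41.5 RPKM, and eya, which sets follicle cell against polar cell fate, 16.6 RPKM. The Iroquois factor mirr of anterior follicle cells had 42.9 RPKM and the adhesion molecule shg, E-cadherin, 25.7 RPKM. Its partners in the adherens junction were higher, arm at 234 RPKM and alpha-Cat at 111 RPKM.

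Not every follicle cell marker was present. The factor cas, which marks early follicle, polar and stalk cells, had 0.458 RPKM. The border cell factor slbo had 0.242 RPKM and the Notch-regulated factor peb 0.0364 RPKM, while Lim1 and Doc2 were at 0. Of 12 genes listed for polar, stalk, border and stretched cells, 7 (58.3%) were at 1 RPKM or more, close to the 54.2% of all genes. The polar cell ligand os (unpaired) was at 0 and the E3 ligase neur at 6.14 RPKM. The border cell gene sn, fascin, had 7.07 RPKM. Of 14 escort cell and terminal filament genes, 9 (64.3%) were at 1 RPKM or more. These included fax with 257 RPKM, bab2 with 35.6 RPKM, Wnt2 with 27.5 RPKM, Wnt6 with 11.1 RPKM and bab1 with 2.42 RPKM, while Wnt4 had 0.374 RPKM, inv 0.0275 RPKM and en was at 0. The ligand gene hh, whose product terminal filament and cap cells send to the escort and follicle stem cells, had 23.5 RPKM.

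Most listed yolk and eggshell genes were low. Of 27, 8 (29.6%) were at 1 RPKM or more, beside 54.2% of all genes, and the median was 0.224 RPKM, beside 2.82 RPKM. The eggshell gene dec-1 was meant for the list but is not among the 27. A locus listed only by the number 41609, where release 6 places that gene, had 138 RPKM. The highest of the 27, pip, a sulfotransferase of ventral follicle cells, had 16.0 RPKM, and its locus overlaps that of fal, which had 42.4 RPKM. Among chorion genes Cp15 and Cp18 had 14.1 and 12.5 RPKM, while Cp36 had 0.0435 RPKM and Cp16, Cp19 and Cp38 were at 0. The yolk protein genes Yp3, Yp2 and Yp1, which follicle cells and fat body transcribe, had 3.16, 2.84 and 1.62 RPKM. The vitelline membrane genes Vml and Vm26Ab had 3.04 and 0.872 RPKM, and Vm26Ac and Vm32E were at 0.

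Germ cell genes were mixed. In the list of 22 germline markers, 12 (54.5%) were at 1 RPKM or more, the share of all genes being 54.2%. The helicase gene vas, the usual germ cell marker, had 1.56 RPKM, and its locus overlaps vig, which had 189 RPKM. The stem cell differentiation factor bam had 0.886 RPKM, orb 0.288 RPKM, nos 0.053 RPKM, osk 0.032 RPKM and the germline gap junction gene zpg 0.0211 RPKM; otu and BicC were at 0. The locus of nos overlaps CG42358 at 32.1 RPKM, and that of zpg overlaps CG8368 at 43.0 RPKM. Other genes known for work in oocytes were well above 1 RPKM. These were vls at 51.6 RPKM, which overlaps lok at 52.7 RPKM, CycB3 at 46.2 RPKM, pgc at 45.8 RPKM, the eIF4E binding protein cup at 31.7 RPKM and stau at 27.4 RPKM. Even bcd, the maternal anterior determinant, stood at 12.1 RPKM.

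Of 18 genes listed for the somatic form of the piRNA pathway, 17 were at 1 RPKM or more, with a median of 29.3 RPKM. Of 14 genes listed for its germline form, 9 (64.3%) were, with a median of 10.4 RPKM; mael stands in both lists. The gene piwi, on 2L at 10982204 to 10987416, ranked 144 with 576 RPKM, above tj. The helicase armi had 469 RPKM, the cochaperone shu 131 RPKM and the Tudor protein fs(1)Yb, which builds the somatic Yb bodies, 61.2 RPKM. CG9925 was the exception at 0.00952 RPKM. The germline PIWI genes aub and AGO3 had 0.436 and 0.96 RPKM, and the Tudor gene tej had 0.0653 RPKM. The 9 germline list genes at 1 RPKM or more were spn-E at 127 RPKM, mael at 87.2 RPKM, krimp at 64.4 RPKM, thoc7 at 63.6 RPKM, del at 38.03 RPKM, tud at 33.6 RPKM, squ at 14.2 RPKM, cuff at 6.47 RPKM and rhi at 1.56 RPKM. The locus of del overlaps CG9253 at 148 RPKM, and that of cuff overlaps ERp60 at 630 RPKM. All 11 genes of the siRNA and miRNA machinery were at 10 RPKM or more. AGO2 and Dcr-2, which act in RNA interference, had 213 and 159 RPKM, while AGO1 and Dcr-1, which act with miRNAs, had 70.9 and 15.6 RPKM.

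Markers of other tissues were mostly under 1 RPKM. Of fat body markers 1 of 16 was at 1 RPKM or more, of photoreceptor and chemosensory markers 1 of 17, of tracheal and cuticle markers 1 of 15, of gut markers 3 of 21 and of testis markers 5 of 21. The defining fat body genes Fbp1 and Lsp2 were at 0 and 0.0947 RPKM. The exception among fat body genes was CG3523, a fatty acid synthase, at 288 RPKM. The rhodopsin gene ninaE, the gut factor GATAe and the testis genes aly and dj were at 0.

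Hemocyte, neuron, glia and muscle lists had more members above 1 RPKM, and the common markers of each were split, some above it and others near or at 0. Of 18 hemocyte markers 6 passed, among them the scavenger receptor crq at 21.7 RPKM, the peroxidase Pxn at 9.36 RPKM and the GATA factor srp at 8.83 RPKM. In contrast, Hml stood at 0.0172 RPKM, eater at 0.0936 RPKM, and He and nimC1 were at 0. Of 22 neuron markers 7 passed. The RNA binding protein elav had 10.1 RPKM and the syntaxin Syx1A, which is not confined to neurons, 36.9 RPKM, but n-syb, brp and Syt1 had 0.284, 0.0813 and 0.0085 RPKM. Of 9 glia markers, wrapper, loco, nrv2 and moody had 54.2, 33.2, 30.8 and 22.6 RPKM, while the factors repo and gcm that define glia had 0.0407 RPKM and 0. The locus of repo overlaps CG7156 at 6.49 RPKM. Of 25 muscle markers 10 passed. Act57B, an actin of larval muscle, had 151 RPKM, the tropomyosin Tm1, which has nonmuscle forms, 102 RPKM and Mf, myofilin, 85.4 RPKM. The muscle myosin Mhc had 5.44 RPKM and the factor Mef2 3.70 RPKM, while Mlc1 and up, the troponin T gene, were at 0. Whether a few cells held a high level or many cells a low one cannot be told apart in RNA pooled from the culture.

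**Figure D2:**
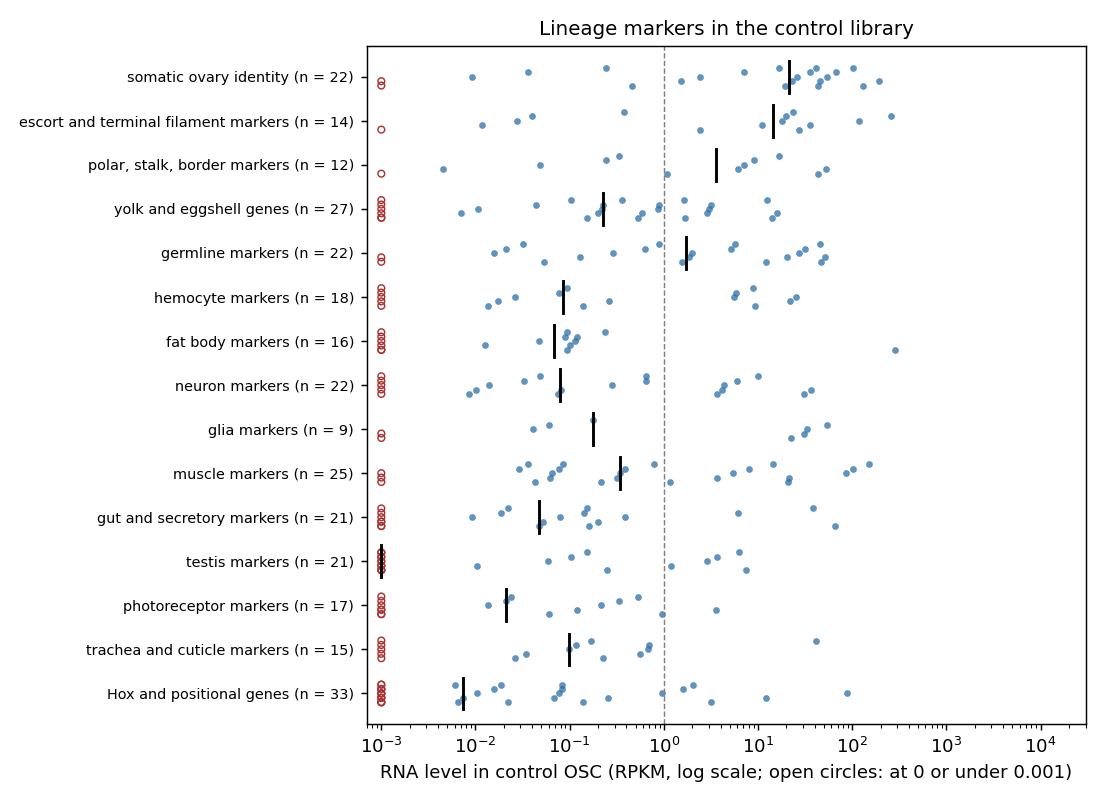
RPKM (log axis) of each member of the lineage lists in the control OSC library. Each point is a gene, the black tick is the list's median, the dashed line is 1 RPKM and open circles are genes at 0 or under 0.001 RPKM; somatic ovary genes lie mostly above the line, with a median of 21.3 RPKM, and yolk and eggshell, fat body, testis and photoreceptor genes mostly below it.

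Among transcription factors, tj was the highest of 113 listed, of which 45 (39.8%) were at 1 RPKM or more and 34 were at 0. It was followed by bowl, an odd-skipped family factor, at 188 RPKM, lola at 171 RPKM, zfh1 at 130 RPKM and the E2F partner Dp at 108 RPKM. The list does not hold every such factor: crc at 383 RPKM and Xbp1 at 225 RPKM, both in the stress list, were above tj. Other members of the odd-skipped family were silent: odd and sob were at 0 and drm at 0.0140 RPKM. The growth regulators dm, the fly Myc, and Max, its partner, had 48.7 and 47.3 RPKM, and the AP-1 pair kay and Jra had 54.1 and 35.0 RPKM. Homeotic and positional genes were nearly all off. Of 33, 5 (15.2%) were at 1 RPKM or more and 14 were at 0. The Hox gene Antp had 3.20 RPKM, Abd-B 0.0188 RPKM, Scr 0.00741 RPKM and Ubx 0.00646 RPKM, while abd-A, Dfd and pb were at 0. The cofactor exd had 87.5 RPKM, but hth, which brings Exd into the nucleus, had 2.05 RPKM. Transcription factors of limb, heart and eye such as Dll, H15, Hand and Optix were at 0.

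Genes of sex determination were expressed on the whole, 18 of 23 (78.3%) being at 1 RPKM or more. Sxl, the switch gene that is on in females, had 49.0 RPKM on the X chromosome, and its locus overlaps CG14425 at 39.6 RPKM. The splicing regulators downstream, tra2 and tra, had 40.7 and 17.0 RPKM, the locus of tra overlapping spd-2 at 41.9 RPKM. Their targets dsx and fru had 140 and 55.1 RPKM. The gene-level values do not show which sex-specific splice form was made. The dosage compensation gene msl-2 had 7.15 RPKM, the RNA roX1 8.47 RPKM and roX2 0.0765 RPKM. On the Y chromosome segments 1 of 7 genes was above 0. That gene, CG41503, had 65.6 RPKM; its name in release 6 is FDY, known as a Y-linked copy of vig2, and vig2 itself, on 3R, had 590 RPKM.

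In the lists used here, the parts of the signalling pathways differed by role. Of 42 intracellular transducers all were at 1 RPKM or more, with a median of 39.0 RPKM. Of 26 receptors 20 (76.9%) were, with a median of 14.5 RPKM. Of 41 ligands 23 (56.1%) were, near the 54.2% of all genes, with a median of 1.11 RPKM beside 2.82 RPKM, and 7 were at 0. The listed transducers spanned 5.36 RPKM for pan to 234 RPKM for arm, and the ligands 0 to 155 RPKM. The transducer list was chosen with earlier results of these data known and does not hold every transducer. The NF-kB factor Dif and the FGF pathway adaptor stumps, which stand in other lists, had 3.27 and 0.113 RPKM. The highest ligand was Ilp6 (X, 2225525 to 2227719), an insulin-like peptide, at rank 587. It was followed by the EGFR ligand spi at 129 RPKM, the BMP ligand gbb at 104 RPKM and the TNF ligand egr at 63.0 RPKM.

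**Figure D3:**
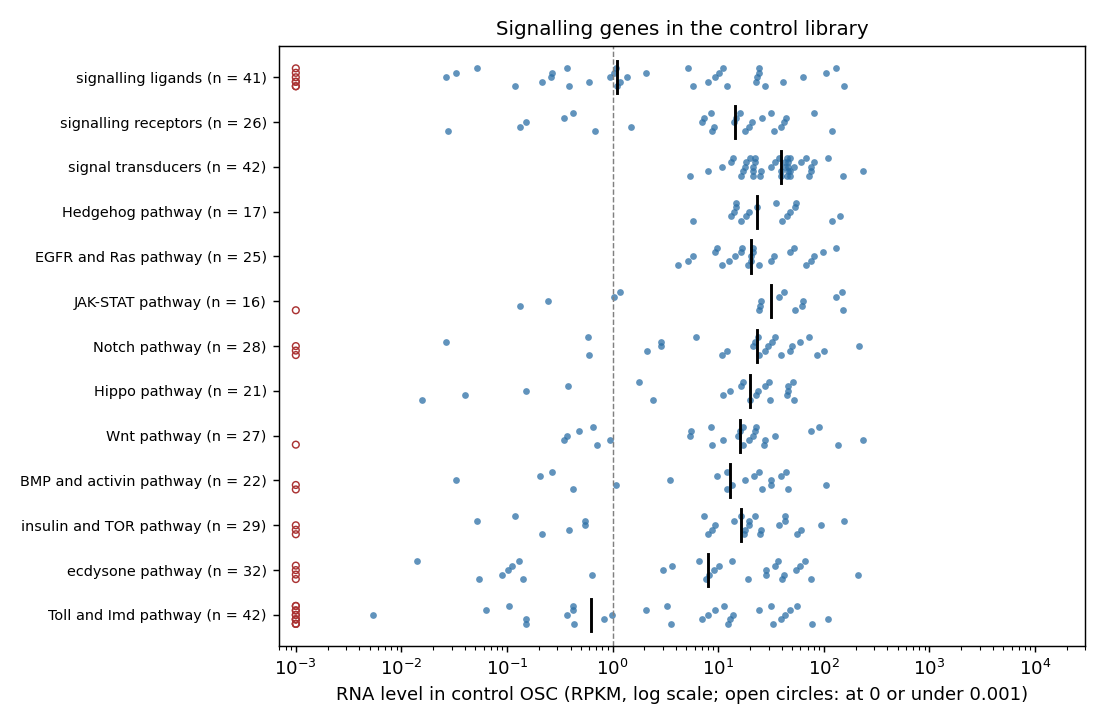
RPKM (log axis) of genes in the signalling lists of the control OSC library. Each point is a gene, the black tick the list's median, the dashed line 1 RPKM and open circles genes at 0 or under 0.001 RPKM; the medians are 1.11 RPKM for ligands, 14.5 RPKM for receptors and 39.0 RPKM for transducers.

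In the Hedgehog pathway all 17 genes were at 1 RPKM or more. The ligand hh had 23.5 RPKM, the activating membrane protein smo 14.2 RPKM and the transcription factor ci 44.7 RPKM. The receptor ptc, itself a transcriptional target of the pathway, was at 119 RPKM and was the highest of the 26 receptors. The 25 EGFR and Ras genes matched were also all at 1 RPKM or more; the EGFR-induced inhibitor aos, meant for the list, was not analysed here. Here the receptor Egfr had 33.9 RPKM, Ras85D 79.9 RPKM and the ERK kinase rl 68.0 RPKM. Pathway-induced genes of this list included the inhibitors kek1 at 51.9 RPKM and sty at 31.6 RPKM, and the protease rho, which frees the ligand, was lowest at 4.13 RPKM.

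JAK-STAT genes divided between ligand and response. The receptor dome had 42.1 RPKM, the kinase hop 25.4 RPKM and the factor Stat92E 153 RPKM. The known targets and partners chinmo, zfh1 and Socs36E had 63.3, 130 and 24.8 RPKM, and apt, an opponent of the pathway in border cells, had 149 RPKM. The ligands upd3 and upd2 had 1.18 and 1.03 RPKM, and os was at 0. In the Notch list 22 of 28 genes (78.6%) were at 1 RPKM or more. The receptor N had 39.6 RPKM, but its ligands Dl and Ser had 0.596 and 0.0266 RPKM. Of the target genes in the Enhancer of split complex HLHm3 had 101 RPKM, HLHmgamma 2.88 RPKM and HLHmbeta 2.13 RPKM, while HLHm5, HLHmdelta and E(spl) were at 0. The corepressor gro was highest of the list at 217 RPKM.

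The Wnt list held 20 of 27 genes (74.1%) at 1 RPKM or more. The ligands Wnt2 and Wnt5 had 27.5 and 22.9 RPKM and wg 0.946 RPKM, and the receptor genes fz2 and fz had 19.6 and 16.0 RPKM. The feedback genes that Wg signalling switches on in many tissues were low, nkd at 0.648 RPKM, Notum at 0.482 RPKM and fz3 at 0.346 RPKM. In the BMP and activin list gbb was the ligand gene of highest level, at 104 RPKM, with dpp at 1.07 RPKM. The ligand genes myoglianin and mav had 24.1 and 12.1 RPKM. The receptors put, sax and tkv had 44.05, 31.3 and 17.95 RPKM and the transducer Mad 46.2 RPKM. The repressor brk had 3.51 RPKM, its locus overlapping CG1677 at 61.7 RPKM, and the target Dad, an inhibitor of the pathway, 12.2 RPKM. In the Hippo list the growth coactivator yki had 45.9 RPKM, its DNA-binding partner sd 52.6 RPKM and the kinases hpo and wts 45.5 and 16.6 RPKM. Upstream, ex had 2.43 RPKM, and the giant cadherins ft and ds had 0.379 and 0.0396 RPKM.

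Insulin and TOR genes were at 1 RPKM or more in 20 of 29 cases (69.0%). Beside Ilp6 at 155 RPKM, the other 7 insulin-like peptide genes were under 1 RPKM, Ilp4, Ilp5 and Ilp7 at 0. The receptor InR had 7.36 RPKM and the kinases Akt1, S6k and Tor 60.3, 42.9 and 22.4 RPKM. Among other receptor tyrosine kinases, sev, known for its role in the R7 photoreceptor of the eye, had 80.6 RPKM, while its ligand boss was at 0. The FGF ligands bnl, pyr and ths had 41.4, 24.4 and 10.1 RPKM, above their receptors btl at 0.674 RPKM and htl at 1.502 RPKM. Pvr, the PDGF and VEGF receptor, had 20.7 RPKM and its ligand Pvf2 7.99 RPKM.

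The ecdysone list had 20 of 32 genes (62.5%) at 1 RPKM or more. The hormone receptor subunits EcR and usp had 19.1 and 41.9 RPKM, the importer Oatp74D 75.1 RPKM and Cyp18a1, which breaks the hormone down, 28.5 RPKM. The steroid synthesis enzymes dib, shd and spok were at 0, phm at 0.111 RPKM and sad, whose locus overlaps CG6962 at 20.5 RPKM, at 0.0905 RPKM. Of the other synthesis enzymes in the list, nvd had 9.05 RPKM and spo 3.01 RPKM. Among the hormone's early response genes br had 54.3 RPKM, Eip75B 8.15 RPKM and Eip74EF 7.72 RPKM, and Eip78C 0.130 RPKM. Nuclear receptors as a family were expressed in 9 of 21 cases (42.9%). Hr39, which acts in the female reproductive tract, was highest at 59.4 RPKM, and ftz-f1 had 34.6 RPKM. Hr83, eg, kni, knrl, svp and tll were at 0.

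Epithelial structure was well represented. Of 39 junction and polarity genes 34 (87.2%) were at 1 RPKM or more. The sodium pump subunit Atpalpha, also a septate junction protein, had 490 RPKM, arm 234 RPKM, the scaffold dlg1 203 RPKM and the ZO-1 protein pyd 118 RPKM. The apical determinant crb had 1.78 RPKM, while its partners sdt and Patj had 41.5 and 44.4 RPKM. The smooth septate junction genes of the gut, Tsp2A at 0.932 RPKM, CG6981 at 0.839 RPKM and CG31004 at 0.00628 RPKM, were low. The locus of Tsp2A overlaps CG11418 at 18.2 RPKM. Gap junction genes inx2 and inx3 had 79.0 and 70.5 RPKM. In the extracellular matrix the laminin chains were uneven, LanA at 202 RPKM, LanB1 at 201 RPKM and LanB2 at 55.9 RPKM. The second laminin alpha chain wb had 0.408 RPKM. The collagen IV chains vkg and Cg25C, basement membrane proteins, had 4.12 and 11.7 RPKM, and Ndg, nidogen, had 0.0908 RPKM. The beta integrin mys had 120 RPKM and the alpha chains if, mew and scb 35.0, 15.5 and 7.74 RPKM.

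In the Toll and Imd list 19 of 42 immune genes (45.2%) were at 1 RPKM or more. None of its 18 induced peptide genes was among them, so the 19 came from the other 24 members, a split made after the values were seen. The inhibitor cact had 110 RPKM, the IKK subunits key and ird5 76.8 and 55.1 RPKM and the NF-kB factors Rel, dl and Dif 47.9, 42.6 and 3.27 RPKM, the locus of Dif overlapping CG15141 at 62.8 RPKM. Among the antimicrobial peptide genes of this list the highest was Drs at 0.821 RPKM, and AttC, CecA1, CecA2, CecC, Dpt, DptB and Dro were at 0. Outside the list, 1 of 29 Turandot and immune-induced peptide genes matched by symbol was at 1 RPKM or more, IM14 at 3.07 RPKM. The receptors PGRP-LC, PGRP-SA, Toll-6 and Toll-7 were at 0, 0.153, 0.00536 and 0.0631 RPKM, while PGRP-LE had 31.3 RPKM. Of the apoptosis list, 14 of 19 (73.7%) were at 1 RPKM or more. The caspases Ice and Dcp-1 had 78.6 and 35.9 RPKM and the inhibitors th and Iap2 51.1 and 32.3 RPKM, while the death genes W (hid) and rpr had 0.447 and 0.263 RPKM and grim was at 0. Chaperones and stress genes passed in 38 of 43 cases. Of the heat-inducible genes Hsp26, Hsp23, Hsp27 and Hsp68 had 112, 72.3, 65.1 and 30.8 RPKM. The Hsp70 copies were lower, from 0.723 RPKM for Hsp70Ba to 7.70 RPKM for Hsp70Ab, and such copies are near identical. GstD1 had 518 RPKM and the metallothionein MtnB was at 0. The core clock genes per, tim, Clk and cry had 0.046, 0.0179, 0.0163 and 0 RPKM, although cyc, vri and the kinase dco had 20.9, 93.8 and 95.2 RPKM. The locus of per overlaps CG2650 at 0.875 RPKM.

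Large families of tissue-restricted genes were close to silent. Odorant receptors had 2 of 59 members at 1 RPKM or more, gustatory receptors 5 of 61, ionotropic receptors 9 of 60 and odorant-binding proteins 2 of 50. Cuticle proteins had 6 of 96, of which 68 were at 0, Tweedle and Osiris genes 1 of 49 and seminal fluid proteins 2 of 47. The highest member in these 7 families was Ir76a at 13.4 RPKM. Detoxification families were less uniform. Of 80 cytochrome P450 genes 27 were at 1 RPKM or more, Cyp4p2 at 125 RPKM and Cyp6a13 at 101 RPKM leading, and of 35 glutathione S-transferases 27 were. Serpins passed in 16 of 27 cases, Spn5 being highest at 153 RPKM. Most snoRNAs carry no poly(A) tail, and 197 of 279 genes with a snoRNA or snmRNA symbol were at 0. By release 6 gene type, 139 of 217 snoRNA genes were. The snoRNA gene of highest level, snoRNA:Psi18S-531 at 203 RPKM, lies in the locus of RpL22, which had 1062 RPKM. All 4 microRNA genes in the table were at 0.

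**Figure D4:**
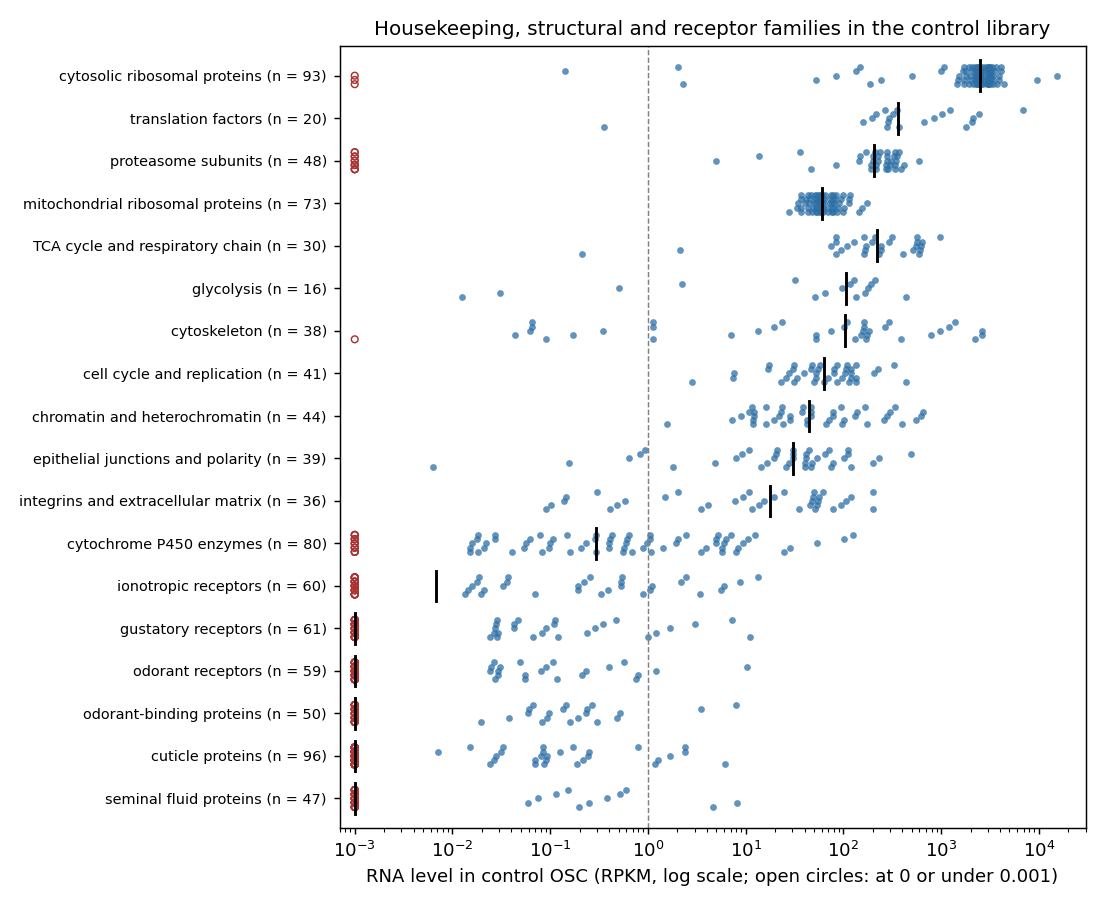
RPKM (log axis) of each member of housekeeping, structural and receptor families in the control OSC library. Each point is a gene, the black tick the family's median, the dashed line 1 RPKM and open circles genes at 0 or under 0.001 RPKM; cytosolic ribosomal proteins have a median of 2488 RPKM and mitochondrial ones of 60.2 RPKM, while the medians of odorant receptors and cuticle proteins lie at 0.

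Chromosome 4 and the X held larger shares of expressed genes than the other major arms. The share at 1 RPKM or more was 73.8% of 84 genes on chromosome 4 and 59.9% of 2211 genes on the X. It was 54.6% on 2R, 53.7% on 3R, 53.04% on 3L and 51.8% on 2L. The median over all genes was 23.7 RPKM on chromosome 4, 7.19 RPKM on the X and 1.57 to 2.73 RPKM on the other 4 arms. Among genes at 1 RPKM or more, the medians were 34.1 RPKM on chromosome 4, 25.5 RPKM on the X and 23.9 to 25.1 RPKM on the others. The highest gene of each of these 6 arms was a ribosomal protein gene, RpS27A on 2L, RpL41 on 2R, Qm on 3L, RpS7 on 3R, RpS28b on the X and RpS3A on chromosome 4. On chromosome 4 RpS3A had 2234 RPKM. Some genes in heterochromatin segments were expressed too. At 1 RPKM or more were all 3 in 2LHet, 13 of 17 (76.5%) in 2RHet, 12 of 18 (66.7%) in 3LHet and 6 of 10 (60%) in XHet. In 3RHet 7 of 17 (41.2%) were, beside 54.2% of all genes, and 9 were at 0. In YHet 1 of 7 was. The highest genes of 3LHet and 2RHet were RpL15 at 2269 RPKM and Yeti at 182 RPKM. Of 39 genes on the unplaced arm U, 38 were at 0.

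**Figure D5:**
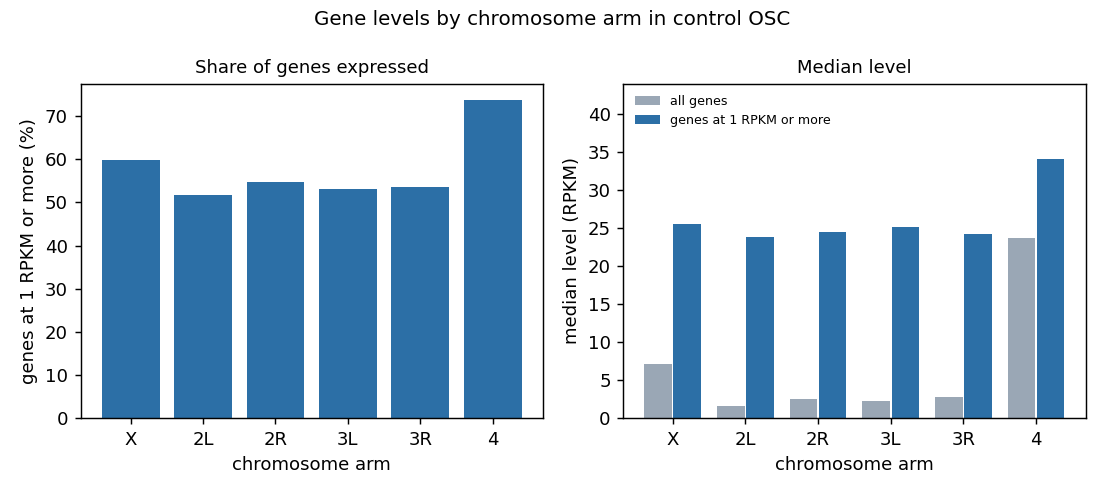
Left, share of genes at 1 RPKM or more (percent), and right, median RPKM of all genes (grey) and of genes at 1 RPKM or more (blue), by chromosome arm in the control OSC library. Chromosome 4 and the X have the highest shares, 73.8% and 59.9%, and chromosome 4 the highest medians, 23.7 and 34.1 RPKM.

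Several of the most abundant RNAs came from genes that the table lists by number only. The 10 highest were CG7194 at 1323 RPKM, CG14072 at 1223 RPKM, CG1746 at 1126 RPKM, CG31676 at 1102 RPKM, CG16817 at 881 RPKM, CG3800 at 831 RPKM, CG15784 at 793 RPKM, CG9894 at 732 RPKM, CG3074 at 724 RPKM and CG32230 at 686 RPKM. In release 6, CG1746 is named ATPsynC, a subunit of ATP synthase, CG16817 p23, a cochaperone of Hsp90, CG3800 CNBP and CG32230 ND-MLRQ, a subunit of complex I. CG9894 and CG3074 are named Bacc and Swim there. CG7194 (3L, 8295463 to 8297159), CG14072 (2L, 10937333 to 10937932) and CG31676 (2L, 20840799 to 20849182) were above 1000 RPKM.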

How the data were processed

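Gene levels were deposited by the authors as RPKM, per the file headers. Build dm3 and the tools Cufflinks 2.0.2, TopHat2 2.0.7, Bowtie2 2.0.0 and cutadapt come from the submitters' processing notes. Not given in the sources used here are the annotation, the strand setting, how multiply mapped reads were counted, and whether locus starts count from 0 or 1.

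Of 14145 rows, 161 repeated a gene name; rows of 1 name were summed. Release 6 gene tables served for names and neighbours only (13726 of 13984 names matched). Levels were ranked, classed at 1, 10, 100 and 1000 RPKM and counted in 47 gene lists and in families matched by symbol. Lists and members were chosen with earlier results of these data known. Named are the 30 highest genes of at least 300 bases, the 10 highest CG genes, lineage markers, and each list's highest members, members at 0 and members whose pathway role is described. In 4 simulated libraries the depth estimate was within 2.04% of the true depth. Those libraries were built from whole reads and assumed transcript lengths, so the error in the real library was not measured. Intervals are 95% exact Poisson. Python 3.11.15, pandas 2.3.3, numpy 2.4.6, scipy 1.17.1 and matplotlib 3.10.9 were used. Other levels, pseudocounts and filters were tried. Promoter motifs were not analysed here.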

Additional observations from a re-analysis of the deposited data

How the results depend on the processing

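At 0.5 RPKM 8036 genes were called expressed and at 5 RPKM 6576, beside 7583 at 1 RPKM, each within 1.5 times. The count was 7581 with the highest row of each name and 7478 among loci of at least 300 bases. Of 47 lists, 33 had a larger share of members expressed than all genes; that number was 33 at 0.5 RPKM, 30 at 5 RPKM and 33 with the highest row. Some list counts moved by over 1.5 times. At 5 RPKM the yolk and eggshell list had 3 members beside 8, testis 2 beside 5, Hox and positional 2 beside 5, neuron 4 beside 7 and photoreceptor 0 beside 1; at 0.5 RPKM photoreceptor had 3 beside 1 and trachea and cuticle 4 beside 1. The share of the sum held by cytosolic ribosomal proteins stayed between 35.6% and 35.7%. Counting genes at 1 RPKM or more alone, arm medians were 23.9 RPKM on 2L, 24.5 on 2R, 25.1 on 3L, 24.2 on 3R and 25.5 on the X, beside 1.57, 2.53, 2.22, 2.73 and 7.19 RPKM over all genes, since low genes leave the median. List medians were also set against that of all genes on the log2 scale, with a pseudocount of 1. When genes at 0 were left out, 42 of 47 moved by over 1.5 times without changing side and 1 stayed within that. The other 4 changed side: the ecdysone list to -0.38, the germline piRNA list to -0.36, the glia list to 0.78 and the polar, stalk, border and stretched cell list to -0.94. With a pseudocount of 0.1, 14 moved by over 1.5 times and 32 stayed within that. The other 1, the polar, stalk, border and stretched cell list, changed side to -0.11. The cause of these shifts was not tested. Recomputing without mitochondrial genome genes was not run, as the table names none, and promoter motifs were not run. No paired analysis was possible because the group holds 1 library. Depth limits levels under about 0.1 RPKM.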

Other observations

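In the gene table, 5 names were 5-digit numbers. They have the form in which a spreadsheet stores a date. The name 41518 stood for a locus between sol and bbx on the X with 133 RPKM, the name 41519 for one between CG16953 and Srp72 on 3R with 326 RPKM, the name 41521 for one between Axs and CG4678 on the X with 16.9 RPKM, and the name 41522 for one between CG2915 and nito on 2R with 21.4 RPKM. In release 6 the single gene between the same neighbours is Septin1, Septin2, Septin4 and Septin5 in that order; septins are filament proteins of the cell cortex. The name 41609 stood for a locus on the X, 7761229 to 7767255 in dm3, with 138 RPKM and rank 664. It lies between Ir7b at 8.68 RPKM and Ir7c at 0.254 RPKM, where release 6 places dec, an eggshell gene once named dec-1, with a length of 6062 bases beside 6026 bases here. The identity rests on neighbours and length alone. The name dec-1 was meant for the list of yolk and eggshell genes but matched no gene name there, and the level of this locus was above that of every one of the 27 listed.

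Some genes outside the lists, picked after their values were seen, were high. The stress factor Xrp1 had 511 RPKM. Arc1, a relative of retroviral Gag proteins, had 374 RPKM. Neurally named adhesion genes were among them: Ama had 282 RPKM, its partner Nrt 268 RPKM and Fas1 123 RPKM. The RNA binding protein Imp had 150 RPKM, the POU factor pdm3 139 RPKM, the engulfment receptor drpr 159 RPKM and the antiviral gene Vago 227 RPKM. The lysosomal proteases Cp1 and cathD had 516 and 479 RPKM.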
